A study of Mus musculus with 8 samples.

Results

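The comparison described here sets the liver of Dnmt2 and Nsun2 double knockout mice against the liver of Nsun2-/- mice. Both livers lack Nsun2, so by genotype the arrays differ in Dnmt2, whose gene symbol on the array is Trdmt1. Genes were included when their probe was detected, at a detection p-value under 0.01, on at least 1 of the 2 arrays. This kept 8940 of the 16559 genes with a named probe. Of the 8940, 7471 were detected on both arrays, 732 on the double knockout array alone and 737 on the Nsun2-/- array alone. The other 7619 genes were detected on neither. At a threshold of 0.05, 10219 genes would have been included.

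Total RNA of livers and of mouse embryonic fibroblasts (MEFs) was measured on Illumina MouseRef-8 v2 bead arrays, which carry gene-specific probes on beads. Each sample type was taken from double knockout, Nsun2-/-, Dnmt2-/- and wild-type mice, with 1 array for each of the 8 groups. The liver donors were 2 months old. The MEFs, used here only for 1 side-by-side comparison, came from embryos at day 13.5 and had been immortalized with the SV40 large T antigen. All groups carry the strain label CBA/C57BL6j x B6;129. Such mice are genetically mixed, and what each mouse inherited apart from the knockouts cannot be told apart from genotype. The labels do not say how many mice each RNA came from, and they give neither sex, feeding state nor hour of collection. With 1 array a side no difference has a replicate check, so no p-value is computed from these 2 arrays and a difference is described by its size.

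Dnmt2 and Nsun2 are RNA methyltransferases that place a methyl group on carbon 5 of cytosines in transfer RNAs. Dnmt2 acts on a few tRNAs at the anticodon loop, and Nsun2 on a wider set of tRNAs, mostly where the variable loop begins. This mark is known to protect tRNAs from cleavage. The liver is a tissue of heavy protein secretion, and it also carries out cholesterol and bile acid synthesis, fatty acid synthesis and oxidation, and the acute-phase response.

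Of 25608 probes, 11623 were detected on the Nsun2-/- array and 11585 on the double knockout array. The log2 deposited intensities of these arrays, with no background correction or normalization, correlated at r = 0.9917 over probes. This lay within the range of 0.9896 to 0.9926 seen among the 4 livers. The tissue was checked against hepatocyte markers. Ttr, Apoa1, Trf, Serpina1a and Ahsg, which code for secreted hepatocyte proteins, had log2 levels between 13.11 and 14.41 on all 4 livers. Alb, the albumin gene, was detected on each but at far lower levels. It was 6.75 in wild-type, 6.85 in Dnmt2-/-, 7.21 in Nsun2-/- and 7.08 in double knockout liver, and the reason was not tested. Of 26 markers of pancreas, fat and muscle on the array, 4 to 6 were detected on each liver. Cela1, a pancreatic elastase gene, was 9.75 in wild-type, 9.23 in Dnmt2-/-, 9.78 in Nsun2-/- and 9.29 in double knockout liver, and Car3 lay between 12.77 and 12.93. Mylpf, of muscle, and Lep, of fat, were each detected in the double knockout but not in Nsun2-/-, while Cpa1, Ctrb1, Adipoq and Ckm were detected on no liver. The summed linear level of the 26 was 9093, 8525, 8383 and 9011 in the same order. Car3 supplied most of each sum, so the sums say little about the other members. Of the 6 tested members 0 differed by 2-fold between the arrays compared, against 2.84% of all genes, so 6 are too few to read. Whether any of this signal came from other tissue was not tested.

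The targeted genes were examined next. The Nsun2 probe was detected on the wild-type liver alone, at a log2 level of 5.35, and was not detected on the Dnmt2-/- (4.41), Nsun2-/- (4.10) or double knockout (4.19) liver. Its deposited intensity was 87.7 on the Nsun2-/- array and 92.2 on the double knockout array. The Trdmt1 probe was detected on no liver, with log2 levels of 4.31 (wild type), 4.87 (Dnmt2-/-), 4.15 (Nsun2-/-) and 4.64 (double knockout). It lay near background everywhere, so it does not check the labels. Among the nearest 20 tested genes around Nsun2 on chromosome 13, 0 differed by 2-fold, and the differences ran from −0.43 to 0.63. Around Trdmt1 on chromosome 2, 1 of 20 did: Il15ra, the alpha chain of the interleukin 15 receptor, was lower by 2-fold (−1.02). As 2.84% of all genes passed 2-fold, sets of 20 are too small to read from these counts.

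Most genes had similar levels on both arrays. The median log2 difference, double knockout minus Nsun2-/-, was 0.003 over all 8940 genes. The difference lay within 0.5 of 0 for 81.87% of them, and the 5th and 95th percentiles were −0.647 and 0.667. A difference of at least 2-fold was found for 254 genes, or 2.84%, of which 138 (1.54%) were higher and 116 (1.3%) lower in the double knockout. At least 4-fold differences numbered 15 higher and 19 lower. The genes nearest the 2-fold line were Igf2 (1.0013, inside) and Msmo1 (0.9995, outside) on the higher side, and Adamtsl2 (−1.0011, inside) and Ranbp3l (−0.9962, outside) on the lower side. The count depends on the background correction and on which arrays are normalized together: it was 134 with quantile normalization over the 4 livers, and 57 without background correction or on the authors' processed values.

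Dim genes supplied most of these calls. In the dimmest tercile by mean level, 151 of 2980 genes (5.07%) differed by 2-fold, against 64 (2.15%) in the middle tercile and 39 (1.31%) in the brightest. The median absolute log2 difference was 0.388, 0.198 and 0.123 in the same order. Of the 254 genes, 103 were detected on 1 array only, 57 of them higher and 46 lower. For these the fold is a bound, written as "at least", because the undetected value was set to no less than the lowest detected value on its array. Of the 89 genes named for a difference past 2-fold, 47 stayed past it under each processing setting that gave them a value, and 0 changed direction under a setting. Of these 47, 42 were detected on both arrays. The other 5 (Akr1e1, Hbb-b2, Adh7, Them4 and Paip1) have no value in the setting limited to genes detected on both. The remaining 42 of the 89 came under 2-fold in at least 1 setting. With the log2 difference nearest 0 that each reached, those higher in the double knockout were Fos (0.94), Tmem87a (0.92), H2-Aa (0.87), Slc2a2 (0.78), Nsdhl (0.72), Nr1d1 (0.70), Junb (0.70), Mrps27 (0.64), Tpm2 (0.61), Ccl24 (0.56), Scara5 (0.51), Mcm6 (0.51), Stk39 (0.49), Kdm5d (0.47), Gal3st1 (0.45), Tmod4 (0.44), Mvd (0.38), Slc4a1 (0.36), Dus2 (0.33), Slc51b (0.28) and Igf2 (0.26). Those lower were 1700071K01Rik (−0.98), Ccndbp1 (−0.97), Aqr (−0.95), Hspb1 (−0.95), Bcl6 (−0.94), Rsad1 (−0.92), Plk3 (−0.91), Fmr1nb (−0.89), Fgf21 (−0.82), Ptcd3 (−0.80), Cxcl13 (−0.80), Cox6b2 (−0.80), Cbr3 (−0.78), Derl3 (−0.74), Mrpl35 (−0.58), Kansl1l (−0.54), Acot3 (−0.38), Cebpg (−0.38), Adat1 (−0.35), Ciart (−0.29) and Gstm3 (−0.28). A second detected probe existed for 45 of the 254 genes. The mean of the other probes had the same direction for 39 of them, and for 18 it was also past 2-fold.

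**Figure D1:**
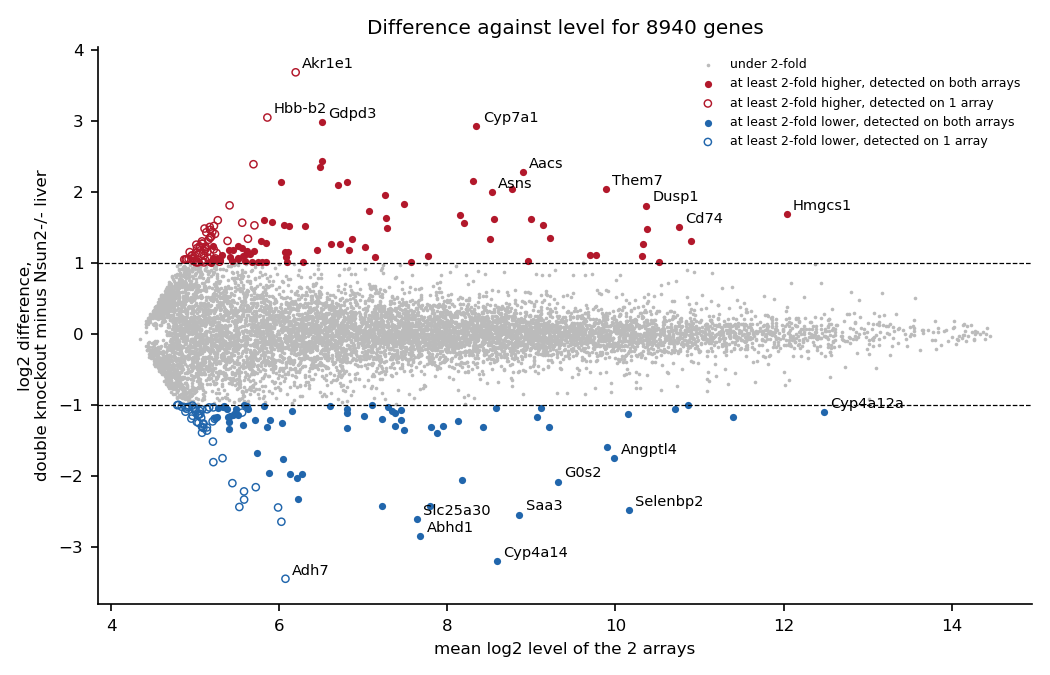
Log2 difference (double knockout minus Nsun2-/- liver, vertical axis) against the mean log2 level of both arrays (horizontal axis) for 8940 genes; dashed lines mark 2-fold, open circles are genes detected on 1 array. The 254 genes past the lines are mostly dim, with Cyp7a1, Hmgcs1, Cyp4a14 and Selenbp2 among the brighter ones.

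Akr1e1, an aldo-keto reductase, had the highest difference. Its log2 levels were 6.58 in wild-type, 7.27 in Dnmt2-/- and 8.21 in double knockout liver, and it was not detected in the Nsun2-/- liver (4.18). It was therefore at least 12.9-fold higher in the double knockout, with the Nsun2-/- array standing below the other 3 livers. Gdpd3, a lysophospholipase D, had the reverse layout. It was not detected in wild-type (4.37) or Dnmt2-/- liver (4.30), lay near background in Nsun2-/- (5.02) and reached 8.003 in the double knockout, 7.92-fold higher. Here the double knockout stood apart from the other 3.

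Cyp7a1, the rate-limiting enzyme of bile acid synthesis, was 8.27 in wild-type, 9.00 in Dnmt2-/-, 6.88 in Nsun2-/- and 9.81 in double knockout liver. Its deposited intensity was 159.7 on the Nsun2-/- array and 749.7 on the double knockout array, and after normalization the fold was 7.63. Wild type and Dnmt2-/- lay between these arrays. Rgs16, a regulator of G protein signalling, was 5.61, 7.59, 5.30 and 7.73 in the same order, a 5.39-fold difference. Both livers labelled as lacking Dnmt2 were the high ones. Asic5, the bile acid-sensitive ion channel, was 8.08 in wild type and 7.66 in the double knockout, against 5.31 in Nsun2-/- and no detection in Dnmt2-/- (4.40). The fold between double knockout and Nsun2-/- was 5.11.

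Further genes at least 4-fold higher included Niban2 (4.47-fold), the ubiquitin ligase Trim33 (4.41-fold), Tmem87a (4.41-fold), the cyclin Ccng2 (4.30-fold) and Them7 (4.13-fold). They did not share a layout over the 4 livers. Trim33 was 5.46, 5.49, 5.74 and 7.88 in the order used above, so the double knockout was high. Its other 2 probes differed by 2.53 and 0.14. Them7 was 10.40, 10.29, 8.87 and 10.91, so Nsun2-/- was low. Among genes with a bound, Tpm2, a tropomyosin, was at least 3.51-fold higher, the kinase Stk39 at least 3.03-fold and the eosinophil chemokine Ccl24 at least 2.89-fold.

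On the lower side, Adh7, a class IV alcohol dehydrogenase, had the largest difference. It was 6.41 in wild-type, 7.97 in Dnmt2-/- and 7.94 in Nsun2-/- liver and was not detected in the double knockout (4.21), at least 10.96-fold lower. Abhd1, an alpha/beta hydrolase domain protein, was 6.19, 5.94, 9.10 and 6.25 in the same order. It was 7.22-fold lower in the double knockout, and its other 2 probes gave −3.35 and −3.24. The Nsun2-/- array was the high one for Abhd1, and the other 3 livers had similar levels.

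Slc25a30, a mitochondrial carrier, was 7.203, 7.931, 8.940 and 6.328 in the same order, 6.11-fold lower. G0s2, an inhibitor of the triglyceride lipase of fat stores, was 10.36, 9.85, 10.36 and 8.27, 4.24-fold lower, with the double knockout below the other 3. Gpat3, an acyltransferase of glycerolipid synthesis, was 5.03-fold lower and Sucnr1, the succinate receptor, 4.16-fold lower. Rmdn3, a protein that tethers mitochondria to the endoplasmic reticulum, was 5.40-fold lower by its brightest probe, whereas its other probe differed by −0.46. Genes not detected in the double knockout included the thioesterase Them4 (at least 6.28-fold lower), the spliceosomal helicase Aqr (at least 5.43-fold) and Ptcd3 of the mitochondrial ribosome (at least 4.48-fold).

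Genes of cholesterol synthesis were higher in the double knockout than in Nsun2-/- liver as a list, and their median level was close to that of wild type. Gene-by-gene differences from wild type were not computed for the list. The list's median log2 level was 8.12 in wild-type, 8.34 in Dnmt2-/-, 7.83 in Nsun2-/- and 8.07 in double knockout liver. Of 26 genes in the list 19 were on the array and were tested. All 19 were detected on both arrays, 18 were higher and 1 (Tm7sf2, −0.30) lower, with a median log2 difference of 0.57, against 0.003 over all genes. At least 2-fold differences were found for 4 of 19, against 1.54% of all genes. The same list had a median of 0.02 in Dnmt2-/- minus wild-type liver, with 10 of 19 above 0. Over the processing settings tried, the list's median lay between 0.32 and 0.65.

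Hmgcs1, the cytosolic synthase of 3-hydroxy-3-methylglutaryl-CoA, was 12.46 in wild-type, 11.68 in Dnmt2-/-, 11.19 in Nsun2-/- and 12.88 in double knockout liver. The double knockout was 3.23-fold above Nsun2-/-, and wild type lay close to the double knockout. Sqle, squalene epoxidase, was 7.45, 8.42, 7.31 and 8.99, 3.21-fold higher, and its other probe differed by 0.90. Nsdhl, a sterol dehydrogenase, was 7.16, 7.18, 6.09 and 7.36, so its 2.41-fold difference came with a low Nsun2-/- array. Its other 3 probes differed by 0.76, 0.43 and 0.80. Mvd, which makes isopentenyl diphosphate, was 2.01-fold higher. Among members under 2-fold, Fdps differed by 0.87, Lss by 0.80, Dhcr7 by 0.74, Idi1 by 0.65 and Insig1 by 0.57. Srebf2, the transcription factor that drives this pathway, differed by 0.39.

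The promoter of Hmgcs1 is shown because this gene had the largest difference of the list and the class of genes it belongs to is controlled through sterol regulatory elements. The 250 bases before its start, at chr13:119690101-119690350 on the plus strand (RefSeq, GRCm38.p6), hold 1 match to TCACNCCAC, in capitals, that begins 137 bases before the start.
Hmgcs1: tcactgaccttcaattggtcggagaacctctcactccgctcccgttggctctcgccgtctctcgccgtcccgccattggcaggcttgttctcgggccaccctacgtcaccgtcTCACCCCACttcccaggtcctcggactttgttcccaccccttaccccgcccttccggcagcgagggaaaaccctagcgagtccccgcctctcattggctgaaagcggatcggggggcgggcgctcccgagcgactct
This motif, searched on both strands, occurred in 1.05% of 32851 such windows. Of the 19 list members 16 had a window, and 1 of these held the motif. A match is a description of the sequence, and binding was not measured.

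Bile acid genes did not move as a list. Of 28 tested members 17 were higher and 11 lower, with a median of 0.07. Cyp7a1 and Slc51b, the beta subunit of the basolateral bile acid exporter (2.06-fold higher), were the 2 past 2-fold, against 2.84% of all genes. Slc51b was dim, with levels of 5.09, 5.24, 4.77 and 5.81 in the order wild type, Dnmt2-/-, Nsun2-/-, double knockout. Cyp8b1, the sterol 12-alpha-hydroxylase, differed by 0.59, Cyp27a1 by 0.05 and the bile acid receptor Nr1h4 by −0.10. The lowest member was Cyp46a1 (−0.99).

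Genes of fatty acid synthesis were more often higher than lower against Nsun2-/-: 17 of 22 tested, with a median of 0.25. Their median log2 level was 10.07 in wild-type, 9.9 in Dnmt2-/-, 9.72 in Nsun2-/- and 10.13 in double knockout liver. At least 2-fold higher were 2 of 22, against 1.54% of all genes. Aacs, which turns acetoacetate into acetoacetyl-CoA for lipid synthesis, was 8.48 in wild-type, 8.86 in Dnmt2-/-, 7.76 in Nsun2-/- and 10.04 in double knockout liver, 4.87-fold higher. Mid1ip1, an activator of acetyl-CoA carboxylase, was 8.92, 8.91, 8.18 and 9.80, 3.07-fold higher. For both genes wild type and Dnmt2-/- lay between the arrays compared. Srebf1, the transcription factor of lipogenesis, differed by 0.97 and its target Thrsp by 0.83. Srebf1 was 8.02, 7.21, 6.95 and 7.92 in the same order, with wild type and double knockout close. Fasn, fatty acid synthase, differed by 0.58. Me1, malic enzyme, was the lowest member at −0.83 by its brightest probe, with its other probe at 0.51.

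Targets of PPARA, the nuclear receptor of fatty acid oxidation in liver, were more often lower in the double knockout. Of 37 tested members 27 were lower and 10 higher, with a median of −0.20, and 5 of 37 were at least 2-fold lower, against 1.3% of all genes. In Dnmt2-/- minus wild-type liver the list had a median of 0.23, and 31 members were above 0. Over the settings tried, the median lay between −0.29 and −0.19. Cyp4a14, a fatty acid omega-hydroxylase, was 8.72 in wild-type, 10.35 in Dnmt2-/-, 10.19 in Nsun2-/- and 6.98 in double knockout liver. Its deposited intensity was 973 on the Nsun2-/- array and 163 on the double knockout array, and the normalized level was 9.25-fold lower in the double knockout. Both single knockouts were above wild type and the double knockout was below it.

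Angptl4, a secreted inhibitor of lipoprotein lipase, was 10.947, 10.997, 10.864 and 9.114 in the same order. It was 3.36-fold lower in the double knockout, which stood alone. Fgf21, a hormone secreted by the liver in fasting and stress, was 6.25, 8.55, 8.06 and 6.84, 2.33-fold lower. Wild type and double knockout were the low livers for Fgf21. The acyl-CoA thioesterases Acot3 and Acot1 were 2.37-fold and 2.08-fold lower, and Acot4 and Acot2 differed by −0.77 and −0.62. These thioesterase genes are close copies of each other, so their probes may share signal. The oxidation enzymes themselves differed less: Acadm by 0.06, Acadl by 0.01, Acadvl by −0.10, Hadhb by −0.10 and Cpt2 by −0.10. Ppara differed by 0.22. Lpl, lipoprotein lipase, was the highest member at 0.90.

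Immediate-early genes, which respond within minutes to growth factors and stress, held 5 members at least 2-fold higher among 16 tested, against 1.54% of all genes. The list was mixed, with 10 higher, 6 lower and a median of 0.22. Fos was 5.12 in wild-type, 5.202 in Dnmt2-/- and 6.92 in double knockout liver and was not detected in Nsun2-/- (4.47), at least 5.25-fold higher. Dusp1, a phosphatase of MAP kinases, was 9.21, 9.59, 9.46 and 11.27 in the order wild type, Dnmt2-/-, Nsun2-/-, double knockout, 3.50-fold higher. Zfp36, an mRNA decay factor, was 8.45, 8.62, 8.37 and 9.90, 2.88-fold higher. Egr1 was 10.63, 10.28, 10.25 and 11.55, 2.48-fold higher, and Junb was 2.02-fold higher. For these 5 genes the double knockout was the highest of the 4 livers. Jun differed by 0.03, Socs3 by −0.09, Klf2 by −0.36 and Egr3 by −0.89.

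Cxcl1, a chemokine that attracts neutrophils, was 7.55, 7.96, 7.75 and 9.78 in the same order, 4.10-fold higher. As with Dusp1, 3 livers lay close together and the double knockout above them. The promoters of Dusp1 and Cxcl1 are shown because both genes stood apart in the double knockout alone and each carries an element through which stress signals are known to act. The window of Dusp1 lies at chr17:26508473-26508722 on the minus strand and holds 1 match to TGACGTCA, the cAMP response element, 143 bases before the start. That of Cxcl1 lies at chr5:90890995-90891244 on the plus strand and holds 1 match to GGGANTTTC, an NF-kB site, 71 bases before the start. Both come from RefSeq (GRCm38.p6), with the match in capitals.
Dusp1: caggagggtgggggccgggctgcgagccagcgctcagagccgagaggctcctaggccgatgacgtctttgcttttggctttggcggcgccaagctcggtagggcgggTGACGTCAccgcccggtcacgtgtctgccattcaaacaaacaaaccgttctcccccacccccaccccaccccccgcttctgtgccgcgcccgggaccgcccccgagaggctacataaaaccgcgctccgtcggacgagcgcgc
Cxcl1: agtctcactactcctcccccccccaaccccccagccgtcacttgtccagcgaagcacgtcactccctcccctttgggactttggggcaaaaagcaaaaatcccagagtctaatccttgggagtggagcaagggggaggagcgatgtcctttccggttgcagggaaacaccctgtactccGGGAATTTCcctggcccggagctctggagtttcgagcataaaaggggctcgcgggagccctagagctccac
The cAMP response element occurred in 1.55% of 32851 windows and the NF-kB motif in 0.941%, each searched on both strands. Of 14 immediate-early genes with a window, 1 held the cAMP response element.

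Genes of antigen presentation were higher in the double knockout. Of 21 tested MHC genes 18 were higher and 3 lower, with a median of 0.31, and 4 were at least 2-fold higher, against 1.54% of all genes. Over the settings tried, the median lay between 0.16 and 0.32. All 4 belong to the class II pathway, which presents peptides on macrophages, dendritic cells and B cells. Cd74, the class II invariant chain, was 9.58 in wild-type, 9.98 in Dnmt2-/-, 10.01 in Nsun2-/- and 11.51 in double knockout liver, 2.83-fold higher, with its other probe at 1.26. H2-Eb1 was 2.54-fold, H2-Ab1 2.41-fold and H2-Aa 2.04-fold higher, and the other 3 probes of H2-Ab1 differed by 1.06 to 1.27. H2-Ab1 was 9.17, 9.56, 9.70 and 10.96 in the same order. The double knockout was the highest liver for all 4 genes, and the other 3 livers lay close together. The class I genes H2-K1 and H2-D1 differed by 0.12 and 0.53, and B2m by 0.19. Ciita, the regulator of class II genes, was detected in the double knockout alone and differed by 0.50. H2-Ab1, H2-Aa and H2-Eb1 are neighbours on chromosome 17.

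Markers of the cells that carry class II were also more often higher. Of 26 tested Kupffer cell and myeloid markers 20 were higher and 6 lower, with a median of 0.23 and 0 past 2-fold, against 2.84% of all genes. Their summed linear level was 10893 in wild-type, 11864 in Dnmt2-/-, 13067 in Nsun2-/- and 15044 in double knockout liver. Vsig4 differed by 0.57, Marco by 0.50, Adgre1 by 0.15 and Clec4f by 0.15. Fcgr3 was the highest at 0.92 and Hmox1 the lowest at −0.51, and Cd5l was detected on no liver. Of 10 tested lymphocyte markers 7 were higher and 3 lower, from −0.47 (Ltb) to 0.68 (Cd3g). Their summed levels were 806, 840, 836 and 875, and the B cell marker Cd79a was detected on no liver. The part of cell numbers in the class II difference was not tested. In bulk liver RNA, more cells of a type and more RNA per cell cannot be told apart.

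**Figure D2:**
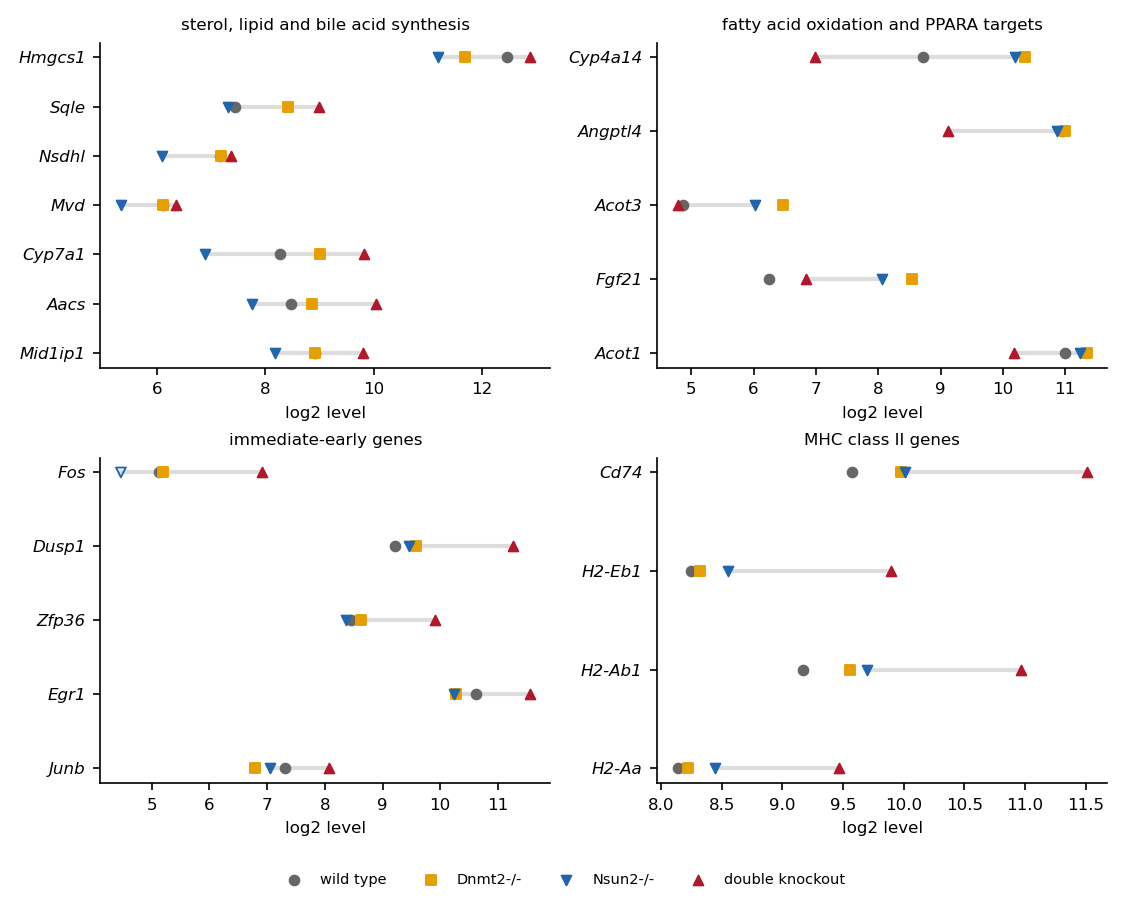
Log2 level (horizontal axis, scaled per panel) on the 4 livers for the members past 2-fold of the sterol, lipid, PPARA, immediate-early and MHC class II groups; open symbols are not detected. The immediate-early and class II genes are highest in the double knockout, while Cyp4a14, Acot3 and Fgf21 differ between wild type and the Dnmt2-/- liver as well.

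Lists of genes tied to tRNA and translation had medians near 0. Of 9 tested cytosine-5 methyltransferases and partners 0 passed 2-fold, with a median of 0.10 and a range from −0.26 (Nsun6) to 0.71 (Uhrf1). As 2.84% of all genes passed it, a list of 9 is too short to read from that count. Dnmt1 differed by 0.13, Nsun5 by 0.10 and Nop2 by −0.22, while Nsun3 was detected in the double knockout alone (0.65). Of 44 other tRNA modification enzymes 28 were higher and 16 lower, with a median of 0.08. The 2 of 44 past 2-fold, against 2.84% of all genes, were Dus2, a dihydrouridine synthase (2.09-fold higher), and Adat1, a tRNA adenosine deaminase (2.28-fold lower). The probes of Adat1 disagreed, since its other probe differed by 0.20. Of 19 aminoacyl-tRNA synthetase genes 12 were higher, with a median of 0.09 and a range from −0.71 (Hars) to 0.73 (Wars). The 3 other probes of Wars differed by 0.60, 0.40 and 0.33. Cleavage and decay factors had a median of 0.01 over 21 genes. Cytosolic ribosomal protein genes had a median of 0.00 over 54, translation factors −0.02 over 37 and ribosome biogenesis genes −0.06 over 31.

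Single members of these large complexes passed 2-fold in lists with medians near 0. Rps3a1, a small subunit ribosomal protein gene, was 8.37 in wild-type, 9.91 in Dnmt2-/-, 9.65 in Nsun2-/- and 8.48 in double knockout liver, 2.25-fold lower, with the single knockouts high. Rps3a1 was the lowest of its 54 list members and the only one past 2-fold, against 2.84% of all genes. Among 63 mitochondrial ribosomal protein genes, whose median was −0.03, Mrps27 was 3.03-fold higher, Mrpl35 at least 3.51-fold lower and Mrpl27 2.48-fold lower. That is 1 higher and 2 lower of 63, against 1.54% higher and 1.3% lower of all genes. Mrps27 was 6.90, 5.09, 5.01 and 6.61 in the same order, so the single knockouts were the low ones. Mrpl27 was 10.03, 10.02, 9.86 and 8.55, so the double knockout stood alone.

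Asns, asparagine synthetase, differed more than any other target of ATF4, the transcription factor of the integrated stress response. It was 6.57 in wild-type, 8.12 in Dnmt2-/-, 7.53 in Nsun2-/- and 9.53 in double knockout liver, 4.01-fold higher, and its other probes differed by 2.49 and 0.57. The double knockout was the highest liver and wild type the lowest. Without Asns, 14 of the 24 other tested targets were higher and 10 lower, with a median of 0.03. Cebpg was at least 2.58-fold lower, Fgf21 was lower as given above, and Trib3, Ddit3 and Atf4 differed by −0.56, 0.19 and 0.01. The promoter of Asns is shown because its stress response is known to run through an element next to the start. The window at chr6:7693210-7693459 on the minus strand (RefSeq, GRCm38.p6) holds 1 match to TGATGNAA, in capitals, 23 bases before the start.
Asns: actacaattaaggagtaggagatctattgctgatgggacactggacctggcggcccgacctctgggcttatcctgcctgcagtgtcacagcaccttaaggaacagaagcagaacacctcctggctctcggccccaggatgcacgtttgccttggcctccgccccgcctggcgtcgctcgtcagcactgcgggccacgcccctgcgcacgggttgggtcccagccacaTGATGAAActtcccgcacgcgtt
The motif, searched on both strands, occurred in 3.45% of 32851 windows and in 6 of 23 list members with a window, among them Fgf21, Chac1 and Nupr1. These differed by −1.22, 0.04 and −0.16.

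Genes of the clock and of insulin and growth hormone responses were mixed. Of 20 clock genes 10 were higher and 10 lower. Bhlhe40, a repressor of the clock, was 8.93 in wild-type, 9.48 in Dnmt2-/-, 7.75 in Nsun2-/- and 9.37 in double knockout liver, 3.06-fold higher. Nr1d1, the nuclear receptor REV-ERB alpha, was 7.86, 7.78, 6.24 and 7.43, 2.28-fold higher. For both, the Nsun2-/- liver was the low one. Ciart, a repressor of the clock, was at least 2.10-fold lower, Dbp differed by −0.11, Arntl by −0.24 and Per2 by 0.46. Igfbp1, an IGF-binding protein that insulin represses, was 5.90, 5.34, 6.27 and 8.24, 3.90-fold higher, and the glucose transporter Slc2a2 was 2.03-fold higher. G6pc and Pck1, enzymes of glucose production, differed by 0.72 and −0.62. Bcl6, a repressor of female-biased genes in liver, was 10.28, 9.88, 8.74 and 7.52, 2.33-fold lower.

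Among 30 male-biased liver genes 11 were higher and 19 lower, with a median of −0.09. Selenbp2, a selenium-binding protein, was 9.12 in wild-type, 11.20 in Dnmt2-/-, 11.40 in Nsun2-/- and 8.91 in double knockout liver, 5.61-fold lower, with the single knockouts high. Cyp4a12a, a male-predominant cytochrome P450, was 13.19, 13.30, 13.03 and 11.93, 2.15-fold lower, with the double knockout alone low. Scara5 was at least 2.96-fold higher. Of 14 tested female-biased genes 7 were higher and 7 lower. The Y-linked Eif2s3y was detected on both arrays and differed by 0.17, Uty by −0.32 and Xist by −0.36. Y-linked Kdm5d was dim, with 5.75, 5.27, 4.40 and 6.05, and was not detected in Nsun2-/-, at least 2.87-fold higher.

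Detoxification genes under NRF2, the sensor of oxidative stress, were more often lower: 29 of 39 tested, with a median of −0.15. Cbr3, a carbonyl reductase, was 5.32, 5.22, 6.92 and 5.16 in the order wild type, Dnmt2-/-, Nsun2-/-, double knockout, 3.39-fold lower, with Nsun2-/- alone high. Gstm3 was at least 2.09-fold lower. No other members of the 39 passed 2-fold, against 2.84% of all genes. Txnrd1 differed by −0.88, Gsta1 by −0.66, Hmox1 by −0.51 and Nqo1 by −0.12. Cytochrome P450 genes of families 1 to 4 had a median of 0.04 over 35 genes, with Cyp4a14 and Cyp4a12a past 2-fold, against 2.84% of all genes.

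The serum amyloid genes differed in opposite directions. Saa1 was 7.88 in wild-type, 6.18 in Dnmt2-/-, 6.46 in Nsun2-/- and 8.09 in double knockout liver, and Saa2 was 7.35, 5.53, 6.57 and 8.40. They were 3.09-fold and 3.55-fold higher in the double knockout. These hepatocyte acute-phase genes are near-identical copies, so their probes may share signal. Saa3, which macrophages and other cells also express, lies near them on chromosome 7. It was 7.51, 7.89, 10.13 and 7.58, 5.86-fold lower, with Nsun2-/- alone high. Of the 25 other acute-phase genes tested 16 were higher and 8 lower, with a median of 0.10 and 0 past 2-fold, against 2.84% of all genes. Orm1 differed by 0.04, Lcn2 by −0.38 and Crp by −0.31.

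**Figure D3:**
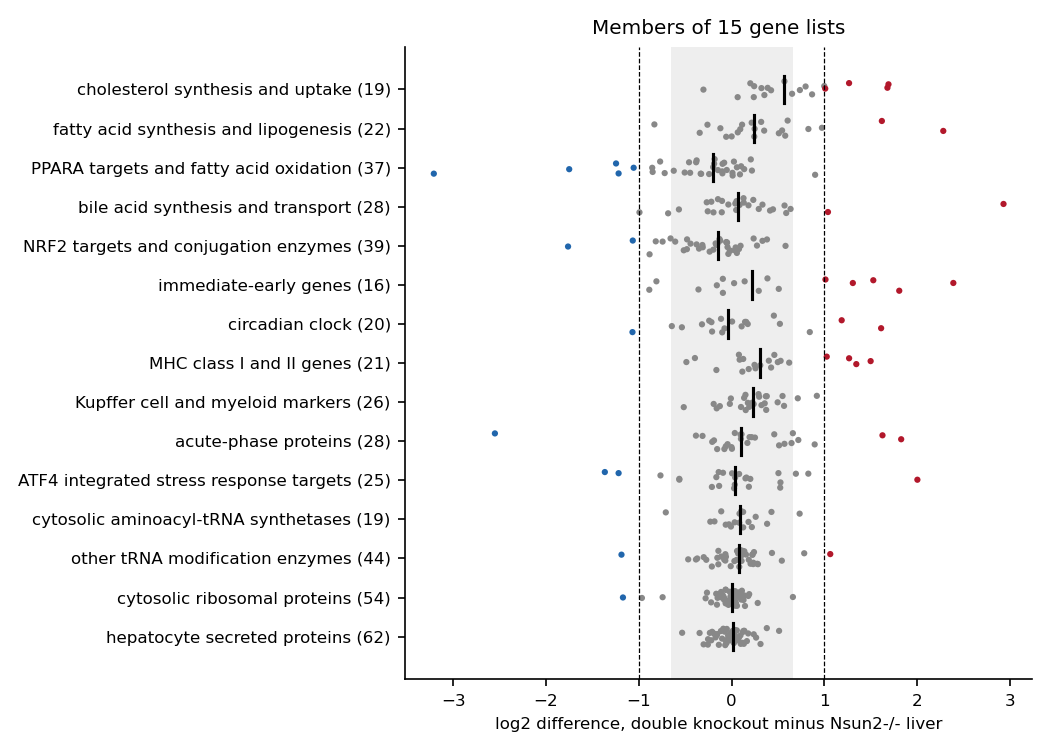
Log2 difference (double knockout minus Nsun2-/- liver, horizontal axis) of every tested member of 15 gene lists, with the number tested in brackets; black bars are medians, dashed lines mark 2-fold and the grey band spans the 5th to 95th percentile of all 8940 genes. Of the 19 cholesterol synthesis genes 18 lie to the right of 0 (median 0.57), whereas ribosomal protein and secreted protein genes centre on 0.

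Among the remaining lists, those of basic liver functions centred near 0. The counts past 2-fold given here stand beside 2.84% of all genes. Of 62 hepatocyte secreted proteins 0 passed 2-fold (median 0.01), and of 68 respiratory chain subunits 0 did (median −0.01). Endothelial markers had a median of −0.06 over 24 genes, with 11 higher and 12 lower. Stellate and fibroblast markers had a median of 0.04 over 22, cholangiocyte markers −0.24 over 6 (2 higher and 4 lower), and pericentral and periportal genes −0.01 and 0.04 over 29 each. Interferon-stimulated genes had a median of 0.02 over 43, with 0 past 2-fold and a range from −0.77 (Trim30a) to 0.97 (Oasl1). Among 21 cell cycle genes the 2 past 2-fold were Ccnd1, cyclin D1 (2.16-fold higher, its other 2 probes at 1.11 and 1.18), and Mcm6 of the replicative helicase (2.02-fold higher). Among heat shock proteins it was Hspb1 (2.48-fold lower), and among endoplasmic reticulum chaperones Derl3, a degradation factor (at least 4.31-fold lower).

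The erythroid list split between its globin genes. Hbb-b2, a beta-globin gene, was 7.97 in wild-type and 7.58 in double knockout liver and was not detected in Nsun2-/- (4.14), at least 8.28-fold higher. It was detected in wild type and the double knockout and missing in Nsun2-/- and Dnmt2-/- (4.78, not detected). Hbb-bt, another beta-globin gene, was 8.04, 8.73, 8.67 and 8.38 and differed by −0.30 (1.23-fold lower). Hba-a1, an alpha-globin gene, differed by 0.26 and Alas2, the erythroid enzyme of haem synthesis, by −0.16. Beta-globin genes are near-identical, and these probes may share or split signal. Of 9 tested erythroid markers 5 were higher and 4 lower, and 2 were at least 2-fold higher, against 1.54% of all genes. The membrane transporter Slc4a1 was the other one past 2-fold (at least 2.39-fold higher, dim).

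The place of each array among the 4 livers was counted for the 254 genes. These genes were chosen for the difference between 2 of the 4 arrays, so high and low ranks follow in part from the choice. No such count was made over all genes, and the counts are a description. Of the 138 higher genes, the double knockout had the highest level of the 4 livers in 116, Nsun2-/- had the lowest in 94, and both held in 74. The double knockout lay at least 2-fold above both wild type and Dnmt2-/- in 32, Nsun2-/- lay 2-fold below both in 18, and neither held in 88. Of the 116 lower genes, the double knockout lay at least 2-fold below both in 24, Nsun2-/- 2-fold above both in 18, and neither held in 74. So most of the 254 differences did not set either array 2-fold apart from both other livers.

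The Dnmt2-/- and wild-type livers form a second pair, which by its labels also differs in Dnmt2 and shares no array with the first. The label of the Dnmt2-/- liver could not be checked on these arrays: Nsun2 was not detected there (4.41, against 5.35 in wild type), and Trdmt1, also not detected, had its highest value there (4.87). Each value of this pair carries that limit. In that pair 211 of 8943 genes (2.36%) differed by 2-fold. Across the 8127 genes tested in both pairs the differences had a Pearson r of −0.066 and a Spearman rho of −0.026, and 48.8% had the same sign. These are descriptions across genes, which are not independent replicates. Of 126 genes higher here and tested there, 63 were above 0 and 62 below, with 8 at least 2-fold higher (background 1.1%) and 7 at least 2-fold lower (background 1.26%). Of 102 genes lower here, 57 were above 0 and 45 below, with 18 at least 2-fold higher and 4 at least 2-fold lower.

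The 8 genes higher in both pairs were Rgs16 (2.43 here, 1.98 in Dnmt2-/- minus wild type), Asns (2.00 and 1.55), Vcpkmt (1.37 and 1.21), Spn (1.34 and 1.28), Anln (1.30 and 1.23), Emp1 (1.16 and 1.23), Ppfibp1 (1.04 and 1.11) and Ank3 (1.01 and 1.05). Anln codes for the cytokinesis protein anillin. The 4 genes lower in both pairs were Derl3 (−2.11 and −1.02), Lgals4 (−1.12 and −1.04), Pmepa1 (−1.11 and −1.13) and Fgfr1op2 (−1.05 and −2.31). Values at an undetected probe are bounds.

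More genes past 2-fold in both pairs had opposite signs, 25 against 12. Nudt6, whose gene overlaps Fgf2 on the other strand, was 6.20 in wild-type, 8.65 in Dnmt2-/-, 8.43 in Nsun2-/- and 6.01 in double knockout liver. It was 5.36-fold lower in the double knockout than in Nsun2-/-, and higher by 2.45 on the log2 scale in Dnmt2-/- than in wild type. Paip1, which binds the poly(A)-binding protein, was 5.270, 7.404 and 7.211 and not detected in the double knockout (4.76), at least 5.46-fold lower. Hbb-b2, Asic5, Mrps27, Tmod4, Saa1 and Saa2 had the mirrored layout, with the single knockouts low, and Selenbp2, Rps3a1, Adh7, Cyp4a14 and Ctsc had the single knockouts high. Of the 25 genes, 9 lie on chromosome 3, which held 427 of the 8934 tested genes with a chromosome, and 5 on chromosome 7, which held 724.

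**Figure D4:**
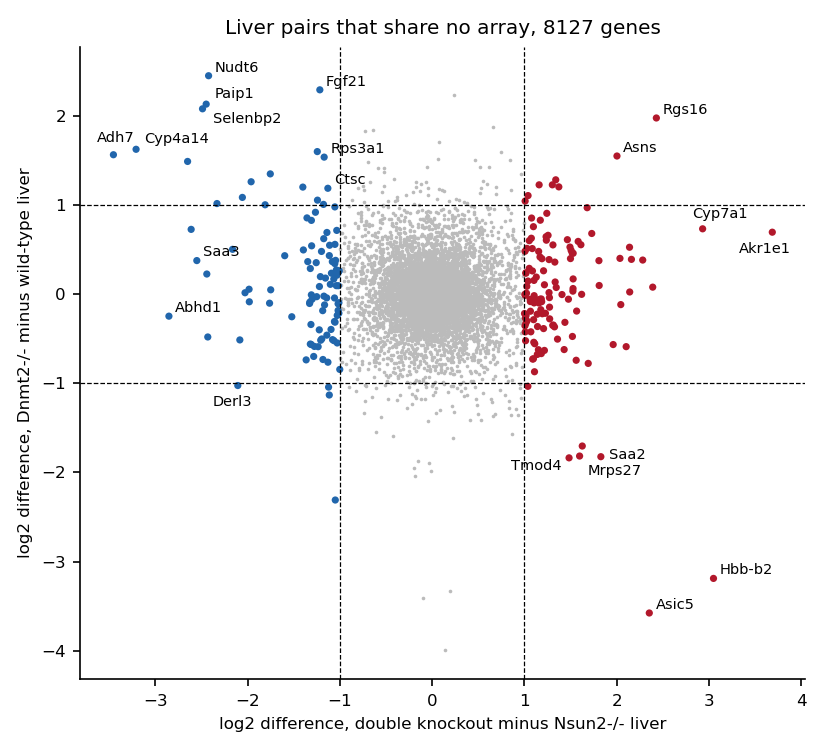
Log2 difference in Dnmt2-/- minus wild-type liver (vertical axis) against that in double knockout minus Nsun2-/- liver (horizontal axis) for the 8127 genes tested in both pairs, which share no array; coloured points differ by 2-fold in the pair described here and dashed lines mark 2-fold. Genes such as Hbb-b2, Asic5, Nudt6 and Selenbp2 fall in the corners of opposite sign, and Rgs16 and Asns in the corner of equal sign.

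The effect of Dnmt2 loss in liver over both pairs was tested with limma on 10491 genes, each detected on 2 or more of the 8 arrays. The fit averages the 2 pairs and takes undetected values as measured, without raising them to the lowest detected value. Its log2 effects can therefore differ from the mean of the differences given above. Its spread is how far arrays depart from an additive layout and holds no replicate mice. After Benjamini-Hochberg adjustment 0 genes passed 0.05, and 458 (4.37%) had an unadjusted p under 0.05. The lowest adjusted p was 0.971, a value that several genes shared, among them Asns and Rgs16. Anln had the lowest unadjusted p (log2 effect 1.54, SE 0.17). Every alternative run, among them leaving out the Dnmt2-/- liver array, also called 0 genes.

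In MEFs the same contrast, double knockout minus Nsun2-/-, gave 644 of 9731 genes (6.62%) at least 2-fold different. The MEF and liver pairs share no array. Across 7776 genes tested in both, Pearson r was −0.007 and 49.9% had the same sign. Of 110 genes higher in liver 7 were at least 2-fold higher in MEFs (against 3.32% of all genes tested there) and 7 at least 2-fold lower (against 3.3%), and of 97 lower in liver 6 were lower and 4 higher. Saa3 differed by −2.55 in liver and −4.86 in MEFs, Angptl4 by −1.75 and −2.03, Cd74 by 1.4995 and 1.80, H2-Ab1 by 1.27 and 1.39, and Ccnd1 by 1.11 and 1.27. Adh7, Ctsc, Mid1ip1 and Dusp1 had opposite signs, with 1.74, 1.59, −1.47 and −1.12 in MEFs.

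By chromosome, the share of tested genes past 2-fold was highest on chromosomes 6 (27 of 476, 5.67%) and 3 (23 of 427, 5.39%) among those with over 100 tested genes, against 2.84% of all. Chromosome 19 had the lowest share, 3 of 318 (0.943%). On chromosome 13, Paip1 (−2.45), 4833420G17Rik (1.22) and Hmgcs1 (1.69) lie within a run of 4 tested genes in the RefSeq gene order. They differed in opposite directions. Of 744 detected probes with no gene name, 11 were higher and 12 lower by at least 2-fold.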

How the data were processed

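The deposited table of non-normalized values holds, per the file headers, an intensity and a detection p-value for each probe and array. The authors' processed intensity values were deposited as well. The sources used here do not say how the authors normalized them or computed the detection p-value, and the files name no genome build. Groups were taken from the sample labels. Background was removed with the normexp model in limma 3.58.1 (R 4.3.3), estimating it from detection p-values, and 16 was added as an offset. Log2 values were then quantile-normalized across the 8 arrays. A level is this log2 value. The platform annotation gave 1 gene symbol for 23898 probes and none for 1710. The probe with the highest mean level stood for each gene, a choice that mattered for 4757 genes. The RefSeq table (GRCm38.p6) served for names, chromosomes and gene order. Promoter windows were matched by symbol.

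Differences are double knockout minus Nsun2-/-, with an undetected value raised to the lowest detected value of its array. A gene was called at 2-fold. Of 45 gene lists, members, counts and medians are described without a test. Named were the target genes, the 15 highest and lowest differences among genes detected on both arrays, up to 10 bounds per direction, and list members past 2-fold or else the extremes. Other list members, and genes past 2-fold in both liver pairs, were named after their values were seen. The members and lists were chosen with earlier results of these data known. The limma fit over 8 arrays, tested on simulated data, estimated Dnmt2 and Nsun2 loss within each sample type, with 2 residual degrees of freedom. The number of arrays limits the precision. Alternatives changed the background correction, offset, scaling, detection filter, probe choice and fold.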

Additional observations from a re-analysis of the deposited data

Results flagged for a closer look

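The genes below differed by at least 2-fold between double knockout and Nsun2-/- liver and by at least 2-fold in the opposite direction in another pair with the same Dnmt2 contrast. Each pair has 1 array a side, so the difference between pairs was not tested. Values are log2 differences, the first for double knockout minus Nsun2-/- liver.

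Against Dnmt2-/- minus wild-type liver, lower here and higher there were Adh7 (−3.45 and 1.57), Cyp4a14 (−3.21 and 1.63), Them4 (−2.65 and 1.49), Selenbp2 (−2.49 and 2.08), Paip1 (−2.45 and 2.13), Nudt6 (−2.42 and 2.45), Gpat3 (−2.33 and 1.02), Sucnr1 (−2.06 and 1.09), Cxcl13 (−1.96 and 1.26), Mrpl35 (−1.81 and 1.00), Kansl1l (−1.75 and 1.35), Acot3 (−1.24 and 1.60), Fgf21 (−1.22 and 2.29), Rps3a1 (−1.17 and 1.54) and Ctsc (−1.13 and 1.19). Higher here and lower there were Tmod4 (1.48 and −1.84), Mrps27 (1.60 and −1.82), Saa1 (1.63 and −1.70), Saa2 (1.83 and −1.82), Asic5 (2.35 and −3.58) and Hbb-b2 (3.05 and −3.19).

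Against double knockout minus Nsun2-/- MEFs, opposite signs were found for Adh7 (−3.45 and 1.74), Cox6b2 (−2.22 and 1.10), Ctsc (−1.13 and 1.59), Mid1ip1 (1.62 and −1.47) and Dusp1 (1.81 and −1.12). With an undetected probe the value is a bound.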

How the results depend on the processing

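The count of genes at least 2-fold different, 254 (138 higher, 116 lower), moved with the processing, and the cause was not tested. It was 57 (33 and 24) without background correction, 57 (34 and 23) on the authors' processed values, 85 (43 and 42) with an offset of 50, 131 (69 and 62) with median scaling and 134 (73 and 61) with quantile normalization over the 4 livers. It was 151 (81 and 70) over the 7471 genes detected on both arrays, a share of 2.02% against 2.84% in the main setting. At 1.5-fold it was 1180 (614 and 566). It was 283, 344 and 230 with a detection threshold of 0.05, no detection filter and the mean over probes. Of the 89 named genes past 2-fold, 47 stayed past it under each setting that gave them a value and 0 reversed. Over genes detected on both arrays 65 of the 89 have a value, and 5 of the 47 have none. The limma fit called 0 genes under all 9 alternatives, with 224 to 828 genes at an unadjusted p under 0.05. No paired analysis was possible because each group has 1 array and shares only replicate number 1. The slide as a block was not run, since the columns name no slide. Low signal over background limits the dim genes.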
